A study of Mus musculus with 2 samples.

Results

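The genes described here are 10 helper cytokines outside the type 3 set: Ifng (type 1), Il4, Il5, Il9 and Il13 (type 2), Il10 (regulatory) and the growth cytokines Il2, Il3, Csf1 and Csf2. They were chosen by gene symbol in a table of 17024 named genes, and 7 of the 10 had a row. Il3, Il4 and Il9 were not analysed here. RNA was sequenced from 2 populations sorted on GFP from the lamina propria of the small intestine, in C57BL/6 mice that were 6 to 8 weeks old. The T helper 17 (Th17) library came from T cells of mice with the IL17A_IRES_GFP knock-in, and the group 3 innate lymphoid cell (ILC3) library came from mice with the IL23R_GFP knock-in. Each group held 1 library, so mouse line, reporter, cell type and library differ together and cannot be told apart. The GFP gates mark transcription of Il17a in one group and of Il23r in the other, so each population is the reporter-positive part of its lineage.

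Helper T cells and innate lymphoid cells are grouped by the cytokines they release. Interferon gamma acts on macrophages and epithelium in defence against intracellular microbes. IL-4, IL-5, IL-9 and IL-13 serve responses to worms and allergens, and IL-10 restrains inflammation in the gut. IL-2 sustains T cells, whereas IL-3, GM-CSF (Csf2) and M-CSF (Csf1) act on myeloid cells. IL-3, IL-5 and GM-CSF signal through receptors that share the common beta chain. In the intestine, GM-CSF from ILC3s is known to act on mononuclear phagocytes.

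Depth was 17555055 reads over the named genes in Th17 against 22509405 in ILC3. T cell markers checked the sort, with all 10 listed genes higher in Th17 by a large difference. They summed to 86645 normalized counts in Th17 against 5580 in ILC3, and to 62056 and 3536 without Cd4. ILC3 markers summed to 56965 in Th17 against 138085 in ILC3, with 11 of 12 higher in ILC3 and 4 of them by a large difference. The ILC3 library thus held T cell transcripts at a lower level. It also held higher levels of markers of other tissue. Stroma and endothelium genes summed to 2414 in Th17 against 13119 in ILC3 (13 of 13 higher in ILC3, 11 by a large difference; 449 and 9317 without Pecam1), with Cdh5, Kdr and Vwf at 0 in Th17. Intestinal epithelium genes summed to 213 and 1374 (11 of 11 measured higher in ILC3, 5 by a large difference, Krt20 and Cdx2 at 0 in Th17), and B and plasma cell genes to 3280 and 13681 (6 of 7, 4 by a large difference), or 2458 and 3381 without Igj. Proliferation genes went the other way, at 39584 in Th17 against 7248 in ILC3 (31795 and 3843 without Pcna), with 16 of 16 higher in Th17, 11 by a large difference, and Ccna2 at 0 in ILC3.

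The promoters of 5 of the measured cytokine genes are shown because Csf2, Ifng and Csf1 had the large differences described below, and because Il5 and Il13 lie near Csf2 on chromosome 11 but went the opposite way. Il10 is not shown, nor is Il2, which had no large difference. Each runs 5′ to 3′ on the strand of its gene, from 250 bases before the RefSeq start site to 50 after, in build GRCm38.p6. That build is not the one the authors used, mm8. Of 6 motifs searched on both strands, capitals mark 3. The core of NFAT sites was spelled GGAAA. The TATA box was spelled TATAAA. The site of AP-1 factors was spelled TGANTCA.
Csf2, chr11:54249850-54250149, minus strand: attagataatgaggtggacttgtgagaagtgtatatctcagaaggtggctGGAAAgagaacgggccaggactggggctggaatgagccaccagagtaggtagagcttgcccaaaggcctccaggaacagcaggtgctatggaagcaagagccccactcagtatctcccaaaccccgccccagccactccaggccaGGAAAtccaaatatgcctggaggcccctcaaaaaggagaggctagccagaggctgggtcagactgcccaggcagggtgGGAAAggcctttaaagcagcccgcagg
Il5, chr11:53720544-53720843, plus strand: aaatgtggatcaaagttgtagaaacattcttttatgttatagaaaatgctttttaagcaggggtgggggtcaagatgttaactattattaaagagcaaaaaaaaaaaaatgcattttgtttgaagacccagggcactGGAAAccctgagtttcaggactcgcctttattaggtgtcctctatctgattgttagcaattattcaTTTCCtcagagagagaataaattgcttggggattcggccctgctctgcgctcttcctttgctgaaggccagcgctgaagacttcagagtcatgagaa
Il13, chr11:53634653-53634952, minus strand: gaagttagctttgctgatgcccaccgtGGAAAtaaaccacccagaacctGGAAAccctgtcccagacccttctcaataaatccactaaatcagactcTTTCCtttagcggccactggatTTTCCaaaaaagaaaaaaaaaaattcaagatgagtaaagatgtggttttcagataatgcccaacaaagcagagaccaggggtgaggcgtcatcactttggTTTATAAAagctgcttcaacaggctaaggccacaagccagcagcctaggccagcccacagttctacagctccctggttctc
Ifng, chr10:118440796-118441095, plus strand: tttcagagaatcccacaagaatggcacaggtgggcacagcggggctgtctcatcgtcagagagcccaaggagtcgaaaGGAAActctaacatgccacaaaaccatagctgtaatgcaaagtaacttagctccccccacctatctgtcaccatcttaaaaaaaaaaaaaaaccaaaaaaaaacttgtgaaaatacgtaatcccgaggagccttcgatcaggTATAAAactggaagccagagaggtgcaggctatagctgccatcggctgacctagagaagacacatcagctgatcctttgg
Csf1, chr3:107760420-107760719, minus strand: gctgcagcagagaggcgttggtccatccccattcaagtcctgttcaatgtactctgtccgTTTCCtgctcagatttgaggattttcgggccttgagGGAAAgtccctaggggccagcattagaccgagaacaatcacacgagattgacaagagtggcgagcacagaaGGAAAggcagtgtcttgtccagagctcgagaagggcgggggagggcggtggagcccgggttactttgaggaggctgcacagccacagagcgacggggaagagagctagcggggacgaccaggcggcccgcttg

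GGAAA was found in all 5 windows, at 3 places in Csf2, 2 in Il5, 4 in Il13, 1 in Ifng and 3 in Csf1. Of 32851 promoters of the same length, 61.3% hold it. TATAAA was found in Ifng, beginning at -30 from the start site, and in Il13 as an overlapping pair beginning at -31 and -29. It occurs in 13.6% of all promoters. TGANTCA was found in none of the 5 windows and occurs in 7.81% of all promoters. GATAAG, a form of the GATA motif, was in none of them and is in 7.44% of all promoters. The T-box string AGGTGTGA was in none of them and is in 1.28%. A string of the NF-kappaB kind, GGG and CC parted by any 5 bases and not in capitals here, began at 5 places in Csf1, some of them overlapping, and at 1 in Csf2. The windows of Il5, Il13 and Ifng held none, and 50.8% of all promoters hold it. The Il2 window held GGAAA at 2 places, TATAAA at -31 and the NF-kappaB kind at 1 place, and none of the other 3 motifs. A match is a string of letters and not a measured binding site.

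The cytokines divided between the libraries, and each library had its own leading gene. Ifng, Il10 and Csf1 were higher in Th17 by a large difference, Csf2 was higher in ILC3 by a large difference, and Il2 was at a like level in both. Il5 and Il13 were low in both libraries and leaned to Th17. A difference was called large when log2(normalized count + 1) differed by at least 2, which is 4-fold, and the higher library reached 100 normalized counts. Over all 10431 genes that reached that minimum, 6.4% met this on the Th17 side and 8.39% on the ILC3 side. Of the 7 measured cytokine genes 5 reached that minimum, and of these 5, 3 had the first and 1 the second. The median log2 ratio of Th17 over ILC3 was 3.37 for the 7 cytokine genes and 0.13 for all 17024 genes. No difference has a replicate check, and no p-value was computed. Ranges in parentheses are exact 95% intervals of a ratio. They hold counting error alone and so speak of these 2 libraries rather than of the cell types. By that interval alone, without the size rule, 6 of the 7 were higher in Th17 against 1 in ILC3, against 37.3% and 34.9% of all genes. In bulk samples, fewer cells that make a transcript and less of it per cell cannot be told apart.

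**Figure D1:**
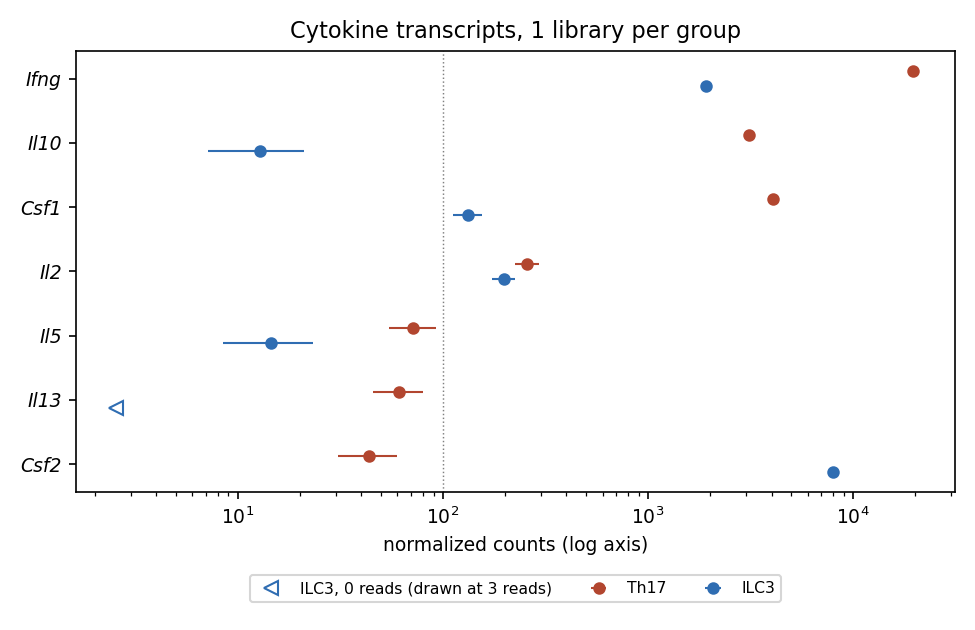
Normalized counts of the 7 measured cytokine genes in the Th17 library (red) and the ILC3 library (blue), on a log axis. Points are single libraries, bars are exact 95% counting intervals, the dotted line marks 100 normalized counts, and the open triangle marks Il13, with 0 reads in ILC3, drawn at the floor of 3 reads. Ifng, Il10 and Csf1 lie far to the right in Th17 and Csf2 far to the right in ILC3.

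**Figure D2:**
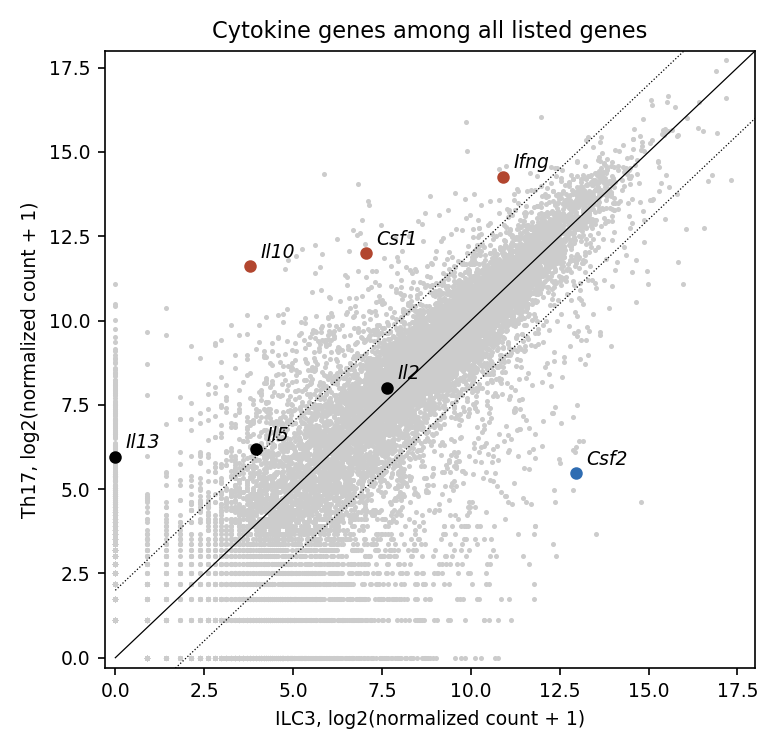
Each grey point is 1 of the 17024 genes, by its log2(normalized count + 1) in ILC3 (horizontal) and Th17 (vertical). The solid line marks equal levels and the dotted lines a 4-fold difference, with red for cytokine genes higher in Th17 by a large difference, blue for higher in ILC3 and black for neither. Il10 and Csf2 lie farthest from the solid line among the cytokine genes with reads in both libraries.

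Ifng encodes interferon gamma, the signature cytokine of type 1 cells. It had 19688 normalized counts in Th17 against 1909 in ILC3, that is 16743 and 2245 reads. The Th17 value was 10.3-fold higher (9.87 to 10.8), a difference that 309 of the 10431 genes reached or passed in the same direction. Per kilobase of coding length it was the leading cytokine of the 7 in Th17, at 42340 normalized counts per kilobase and rank 36 of 14729 genes. In ILC3 it was at 4106 per kilobase, rank 660, second to Csf2. Ifng transcripts were therefore abundant in both libraries. T cell markers summed to 86645 in Th17 against 5580 in ILC3 (62056 and 3536 without Cd4). The part of T cell transcripts in the Ifng value of the ILC3 library was not tested. The authors' deposited table gives Ifng an adjusted p of 0.0469. GENCODE M21 places an unconfirmed same-strand transcript over Ifng. That transcript had no row here, and its reads could be counted to Ifng.

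Among receptors and inducers of the type 1 program, Il12rb2 was farther apart than Ifng itself. Of 13 measured genes, a large difference was found for 3 on the Th17 side and for none on the ILC3 side, and the median log2 ratio was 0.28. Il12rb2, the inducible chain of the IL-12 receptor, had 3056 normalized counts in Th17 against 53.6 in ILC3 (57.04-fold, 44.4 to 74.5). Hlx, a homeobox factor that acts with T-bet, had 279.9 and 44.2 (6.33-fold, 4.67 to 8.72), and the kinase gene Jak2 had 23324 and 5536 (4.21-fold, 4.096 to 4.33). The lineage factor T-bet, encoded by Tbx21, was close to equal at 1430 and 1332, as was Il18r1, a receptor chain for IL-18, at 17310.3 and 14294. Ifngr1, the ligand-binding chain of the interferon gamma receptor, had 27680.4 and 26012. Its partner chain Ifngr2 had 379.8 in Th17 against 1089 in ILC3 (higher in ILC3 by 2.87-fold, 2.54 to 3.25).

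Interferon gamma targets were mixed. Of 16 measured genes 10 were higher in Th17 against 6 in ILC3, with a large difference for 1 in each direction and a median log2 ratio of 0.62. The guanylate-binding protein gene Gbp3 had 1204 normalized counts in Th17 against 275.5 in ILC3 (4.37-fold, 3.85 to 4.97). The chemokine gene Cxcl9 had 67.03 and 302 (higher in ILC3 by 4.504-fold, 3.398 to 6.07). Irf1, itself an interferon-induced factor, was at 5310.3 and 5391, within its counting interval of equal levels. NK cell and ILC1 markers, another possible source of Ifng transcripts, had 3 of 6 measured genes higher in Th17 (1 by a large difference, Gzma). The other 3 were higher in ILC3 (2 by a large difference, Ncr1 and Klrb1c). Ncr1 is also on the list of ILC3 markers, so it does not tell these cells from ILC3s. The NK cell and ILC1 markers summed to 23238 in Th17 against 6069 in ILC3, but Gzma alone was at 20896 and 57.0. Without Gzma the sums turned to 2342 and 6012, with Klra7 and Eomes at 0 in ILC3. Of 11 listed genes of CD8 and gamma-delta T cells 6 had no row, namely the constant genes of the gamma and delta receptor chains. The others summed to 974 and 2517 (821 and 1064 without Cd163l1). Of these, 5 of 5 measured genes were higher in ILC3, 1 of them by a large difference. The part of these cell types in the Ifng difference was not tested.

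Il10 encodes IL-10, which acts on myeloid and T cells to limit inflammation. It had 3121 normalized counts in Th17 against 12.8 in ILC3, from 2654 and 15 reads. That is a 245-fold difference (148 to 438), and 40 of the 10431 genes were as far apart or farther in that direction. Per kilobase of coding length it ranked 526 of 14729 genes in Th17, at 5844, and 10723 in ILC3, at 23.9. In Th17 it was thus the second cytokine after Ifng. The authors' deposited table gives Il10 an adjusted p of 6.42e-06.

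The receptor and the known inducers of Il10 were expressed in both libraries. Il21r, encoding the receptor of a cytokine that induces IL-10, was the 1 gene of 14 measured with a large difference, at 16818 normalized counts in Th17 against 111 in ILC3 (151-fold, 127 to 181). The list's median log2 ratio was 0.14, with 8 genes higher in Th17 and 6 in ILC3. Il10ra, the ligand-binding receptor chain, had 217.5 in Th17 against 101 in ILC3 (2.15-fold, 1.698 to 2.73), and Il10rb, shared with the IL-22 receptor, had 467 and 711 (higher in ILC3 by 1.52-fold, 1.35 to 1.72). Ikzf3, encoding the Ikaros family factor Aiolos, was 3.38-fold higher in Th17 (3.298 to 3.46). Bhlhe40, a repressor of Il10 in T cells, had 50046 in Th17 against 94873 in ILC3 (higher in ILC3 by 1.896-fold, 1.87 to 1.92). Regulatory T cell markers, a population known for IL-10, had 7 of 8 measured genes higher in Th17, 3 by a large difference. They summed to 94699 in Th17 against 25950.6 in ILC3, and to 27816 and 21895 without Ctla4, with Foxp3 at 246 and 16.2 and Gpr83 at 0 in ILC3. Ikzf2 was higher in ILC3, at 2404 and 5907. Macrophage and dendritic cell markers summed to 1957 and 2709, with 11 of 17 higher in ILC3, 3 by a large difference, and Mrc1 at 0 in ILC3. Their part in the Il10 difference was not tested.

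Il2 encodes the T cell growth factor IL-2. It had 256 normalized counts in Th17 against 198 in ILC3, from 218 and 233 reads. The libraries were close, 1.29-fold higher in Th17 (1.07 to 1.56). With reads grouped by 10, the interval widened to 0.703 to 2.48 and held equal levels. Centring on constitutive gene families turned the log2 ratio from 0.37 to -0.09. The authors' deposited table gives Il2 an adjusted p of 1.

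All 3 chains of the IL-2 receptor stood at high levels in both libraries. Il2ra, the inducible high-affinity chain, had 17551 normalized counts in Th17 against 10686 in ILC3 (1.64-fold, 1.604 to 1.68). Il2rb had 39349 and 33842 (1.16-fold, 1.15 to 1.18), and Il2rg, the common gamma chain, 12822 and 16695 (higher in ILC3 by 1.302-fold, 1.27 to 1.33). Among 13 measured genes of IL-2 signalling only Cd28, the costimulatory receptor that drives IL-2 production in T cells, had a large difference. It had 13219 in Th17 against 458 in ILC3 (28.8-fold, 26.4 to 31.5). Jak1, a kinase of this receptor, had 14358 and 14148. The median log2 ratio of this list was 0.22.

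Csf1 encodes M-CSF, the survival factor of macrophages. It had 4062 normalized counts in Th17 against 132 in ILC3, from 3454 and 155 reads. The difference was 30.8-fold (26.2 to 36.4), and 145 of the 10431 genes were as far apart or farther in that direction. Per kilobase of coding length Csf1 followed Ifng and Il10 in Th17, at 2453 and rank 1331 of 14729, and at 79.6 and rank 8916 in ILC3. Markers of stroma and endothelium, known sources of M-CSF, summed to 2414 in Th17 against 13119 in ILC3, and their part in the Csf1 values was not tested. Its receptor gene Csf1r, a macrophage marker, had 239.9 in Th17 against 153 in ILC3 (1.57-fold, 1.28 to 1.93). The authors' deposited table gives Csf1 an adjusted p of 0.00285.

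Csf2 encodes GM-CSF, and it was the cytokine of the 7 with a large difference in the other direction. It had 43.5 normalized counts in Th17 against 7959 in ILC3, from 37 and 9359 reads. The ILC3 value was 183-fold higher (133 to 260.0), and 78 of the 10431 genes were as far apart or farther in that direction. Per kilobase of coding length Csf2 led the 7 in ILC3, at 18816 and rank 113 of 14729 genes. By coding length it had the lowest value of them in Th17, at 103 and rank 8349. That place is not resolved, since its counting interval there overlapped those of Il5 and Il13. Per kilobase of exons Csf2 was above both in Th17, at 54.4 against 46.7 for Il5 and 50.7 for Il13. The authors' deposited table gives Csf2 an adjusted p of 2.41e-06. GENCODE M21 places antisense genes over exons of Csf2 and of Il5. The sources used here do not say whether the counting used strand, so reads of each pair could not be told apart.

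Factors that act upstream of Csf2 were present in both libraries. Of 20 measured inducers and activation factors, 8 were higher in Th17 and 12 in ILC3, and the median log2 ratio was -0.27. The genes named here are all among the 12. A large difference was found for 3, each on the ILC3 side. Of these, Jun and Fos, which form AP-1, were at 6879 and 6775 in the Th17 library, whereas the ILC3 library had 95840 and 68430 normalized counts. Il1r1 and Il23r, receptors of cytokines that induce GM-CSF, were at 7653 and 5435 in Th17 against 13932 and 9688 in ILC3, the sort of ILC3s having selected for Il23r. Junb, with the highest mean of both libraries among genes of this list without a large difference, had 48583 and 124059. Jun and Fos belong to the immediate early genes, which respond within minutes to stimulation or handling. Of 20 such genes 18 were higher in ILC3, 9 by a large difference, and they summed to 216128 in Th17 against 912303 in ILC3. Their part in the Csf2 difference was not tested.

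GM-CSF receptor genes were low in both libraries. Csf2ra, the specific alpha chain, had 84.7 normalized counts in Th17 against 419 in ILC3 (4.95-fold, 3.86 to 6.43) and was the 1 of 7 measured receptor genes of this group with a large difference. The common beta chain genes Csf2rb and Csf2rb2 were at 84.7 and 70.6 in Th17 against 159 and 96.1 in ILC3. They are close copies, and how reads were divided among them is uncertain. Il3ra and Il5ra, the alpha chains for IL-3 and IL-5, were at 179.9 and 162 in Th17 against 213 and 142 in ILC3, and both intervals held equal levels. Csf3r, the G-CSF receptor gene, was at 69.4 and 65.5. The receptor group's median log2 ratio was -0.25.

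**Figure D3:**
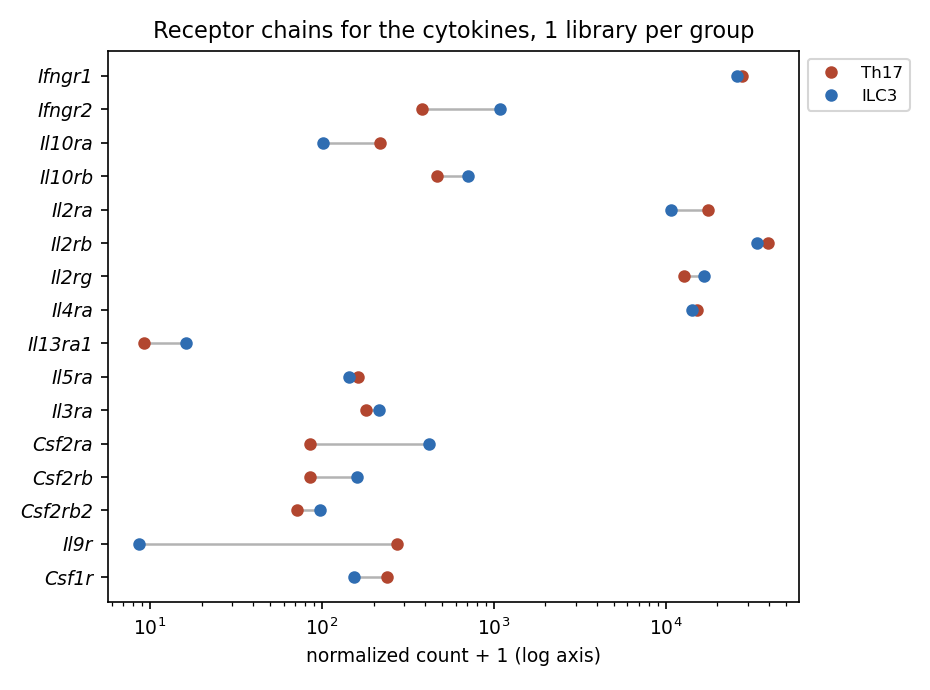
Normalized count + 1 on a log axis for the 16 measured receptor chains that bind the cytokines, in Th17 (red) and ILC3 (blue), with a grey line joining the libraries. Il9r, higher in Th17, and Csf2ra, higher in ILC3, are the chains with a large difference.

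The type 2 cytokines were at low levels. Il5, the eosinophil growth factor, had 71.7 normalized counts in Th17 against 14.5 in ILC3, from 61 and 17 reads (4.96-fold, 2.86 to 9.06). Il13, which drives mucus production and goblet cells, had 61.1 in Th17, from 52 reads, and 0 in ILC3. It was at least 23.9-fold higher in Th17 against a floor of 3 reads, 2.55 normalized counts in that library, and its exact interval began at 18.8. Neither reached 100 normalized counts, so neither could be called. With reads grouped by 10 the interval for Il5 ran from 0.742 to 42.03 and held equal levels, and that for Il13 began at 1.27. The authors' deposited table gives both Il5 and Il13 an adjusted p of 1.

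Receptors for type 2 cytokines had 1 large difference among 8 measured genes and a median log2 ratio of 0.01. Il9r, the IL-9 receptor, had 272.8 normalized counts in Th17 against 7.65 in ILC3 (35.6-fold, 18.5 to 78.9). Il4ra, which serves both IL-4 and IL-13, had 15322 and 14196 (1.08-fold, 1.05 to 1.104), while Il13ra1 was at 8.23 and 15.3. Crlf2, a chain of the TSLP receptor, was at 1028 and 1092. Of 18 transcription factor genes of the type 2 list, 3 had a large difference, each on the Th17 side, and the median was 0.39. These were Irf4 (14061 and 748, 18.8-fold, 17.5 to 20.1), Gfi1 (742 and 140.3, 5.29-fold, 4.45 to 6.32) and Bcl11b (6062 and 1239.9, 4.89-fold, 4.61 to 5.19). Gata3, the lineage factor of type 2 cells, had 1317 in Th17 against 3040.3 in ILC3, and went against the direction of Il5 and Il13.

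Markers of other cells that make type 2 cytokines went both ways. ILC2 markers summed to 6823 in Th17 against 8104 in ILC3, and to 2570 and 6855 without Areg. Most of the ILC3 sum came from Arg1 and Gata3, at 3158 and 3040 there against 5.88 and 1317 in Th17. Of 8 measured, 4 were higher in each library, with 1 large difference in Th17 (Il9r) and 2 in ILC3 (Arg1 and Klrg1), and with Gpr44 and Pparg at 0 in ILC3. Mast cell and basophil markers summed to 279 and 196, with 4 measured. Hdc made up most of that, and without it the sums turned to 36.5 and 89.3. Hdc had no large difference. The other measured genes, Cpa3, Mcpt2 and Ms4a2, did not reach 100 normalized counts in any library and so could not be called. Mcpt4 was at 0 in Th17 and Mcpt8 at 0 in ILC3, both below the mean that counts as measured. Eosinophil markers summed to 30.6 and 46.8, with Siglec5 and Prg2 at 0 in ILC3. The 2 measured, Ccr3 and Alox15, were under 100 in both libraries, so they could not be called.

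Il4, Il13, Il5, Csf2 and Il3 lie in 1 stretch of chromosome 11, with other genes between them. In the reference gene order that stretch, from Kif3a to Acsl6, holds 14 protein-coding genes, 5 of them cytokines of the set. Of the 9 others none had a large difference. Rad50, a DNA repair gene between Il13 and Il5, had 878 normalized counts in Th17 against 1248 in ILC3. Irf1, next to Il5, differed by 1.02-fold, and P4ha2, next to Csf2, had 159 and 223. The opposite differences of Csf2 and Il13 thus stood beside neighbours that differed by less than 4-fold or were under the minimum.

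**Figure D4:**
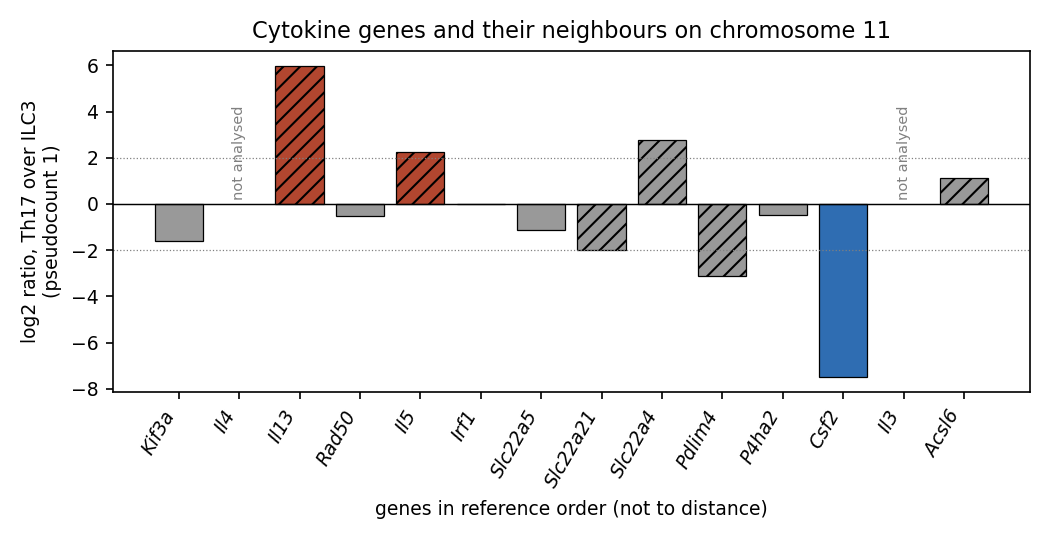
Log2 ratio of Th17 over ILC3 (pseudocount 1) for 12 of the 14 protein-coding genes from Kif3a to Acsl6 on chromosome 11 (Il4 and Il3 were not analysed), in reference order and not to distance. Coloured bars are cytokine genes (red higher in Th17, blue higher in ILC3), grey bars are the others, hatched bars did not reach 100 normalized counts in either library, and dotted lines mark 4-fold. Csf2, at -7.48, is the 1 unhatched bar beyond the dotted lines.

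Other cytokine neighbours also parted. Il22, a type 3 cytokine gene that lies near Ifng, had 2830.4 normalized counts in Th17 against 31669.6 in ILC3, 11.2-fold higher in ILC3 (10.7 to 11.7). Iltifb, a near copy of Il22 between the 2 genes, had 426 and 1415, and the split of reads between the copies is uncertain. Dyrk2 and Cand1, on the other side of Ifng, were at 915 and 4702 in Th17 against 1580.1 and 3379 in ILC3. Next to Il2, Il21, a type 3 cytokine gene of helper T cells, had 810.2 in Th17 and 1 read in ILC3 (953-fold, 170.4 to 37683), whereas Il2 itself differed by 1.29-fold. Il10 stood beside Mapkapk2, a stress kinase gene, at 8956 and 7985.

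Among the 7 cytokine genes each library was led by 1. Per kilobase of coding length Ifng made up 82.1% of their summed level in Th17, followed by Il10 at 11.3%, Csf1 at 4.75% and Il2 at 0.98%. In ILC3 Csf2 made up 80.2%, followed by Ifng at 17.5%, Il2 at 1.67% and Csf1 at 0.339%. Without length Csf1 passed Il10 in Th17, at 14.9% against 11.4%, since its coding sequence is 1656 bases against 534. At the low end the order is not resolved. In Th17 the counting intervals of Il5 (54.9 to 92.1 normalized counts), Il13 (45.7 to 80.2) and Csf2 (30.6 to 59.97) overlapped, for genes of like coding length (399, 393 and 423 bases). In ILC3 those of Il10 (7.14 to 21.04) and Il5 (8.42 to 23.1) overlapped. Reads of the 7 genes were 0.132% of the Th17 library and 0.0534% of the ILC3 library.

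The genes with the most similar pattern were sought for each cytokine with a large difference, by distance on log2(normalized count + 1) over both libraries. With 2 libraries such likeness says little. Nearest to Ifng were Il17f, a type 3 cytokine gene (distance 0.26), and Cd4 (0.34), and nearest to Il10 were the costimulatory receptor gene Tnfrsf4 (0.996) and Ubash3a (1.095), a regulator of T cell receptor signalling. Csf1 was nearest to Neb (0.295) and Cd2 (0.48). Csf2 was nearest to Psd2 (0.503) and to Fcer1g (0.54), which encodes an adaptor of activating receptors.

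The remaining cytokines of lymphocytes and their partners were read for comparison. Of 18 measured genes, a large difference was found for none on the Th17 side and for 3 on the ILC3 side, Tnf, Lif and Il15. Tnf had 1439 normalized counts in Th17 against 9130.1 in ILC3 (6.34-fold, 5.98 to 6.74), and Lif, a cytokine of the IL-6 family, 322 and 6061 (18.8-fold, 16.7 to 21.3). Il15 had 2.35 and 229.6 (97.6-fold, 26.8 to 810.3). Il33 and Tslp, made by epithelium and stroma, were at 0 in Th17 and at 79.1 and 25.5 in ILC3, and Il6 was at 2.35 and 99.5. These went with the higher stroma, endothelium and epithelium markers of that library, whose part was not tested. Lta and Osm leaned to Th17, at 4125 and 312 against 1041 and 77.4, and missed the threshold of 2 at log2 ratios of 1.99 and 1.996. Without the pseudocount Osm was 4.03-fold higher and Lta 3.96-fold. Tgfb1, with the highest mean among those without a large difference, had 9232 and 3829.

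**Figure D5:**
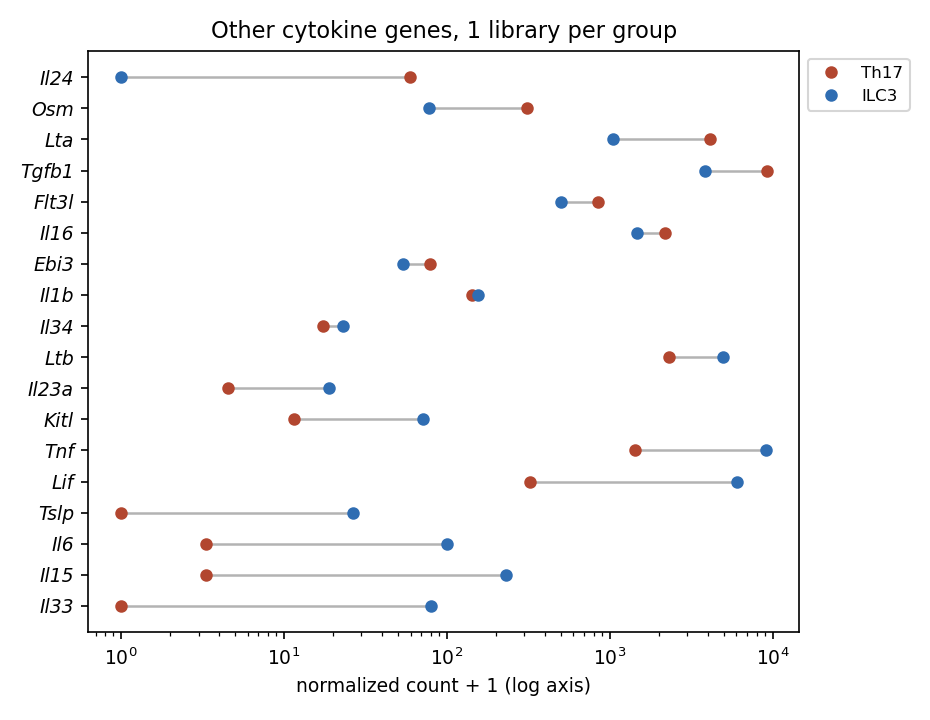
Normalized count + 1 on a log axis for the 18 measured genes among other cytokines, in Th17 (red) and ILC3 (blue), ordered by their ratio, with a grey line joining the libraries. Tnf, Lif and Il15 have large differences higher in ILC3, and points at 1 are genes with 0 reads.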

How the data were processed

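The submitters' processing notes name TopHat2 2.0.6, HTSeq 0.5.4p3, DESeq 1.12.0 and the mouse build mm8, with no order or settings. Libraries were made from 1 ug of total RNA, per the labels' protocols. How many animals went into a library is likewise not given. The signal values are the authors' deposited size-factor-normalized counts, and the p-values and adjusted p-values are the authors' own and have no replicate behind them. Of 17048 rows, 24 with gene names turned into dates were left out (0.251% of Th17 and 0.297% of ILC3 values).

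Reads were recovered as multiples of the lowest value above 0 (1.18 in Th17, 0.8504 in ILC3), and 100% of values were whole within 0.001. On these reads the exact (Clopper-Pearson) interval excluded equal values for 12296 genes. No replicated count model could be fitted. The labels describe no molecular identifiers, so PCR copies may be among the reads, and intervals and the floor of 3 reads cover counting error only. Log2 ratios use a pseudocount of 1, which understates low genes, and folds use none. Listed genes count as measured where the mean of both libraries is 10 normalized counts or more. Coding lengths are the longest per gene in GENCODE M21, and names and gene order (by start position) come from RefSeq GRCm38.p6. Promoters (RefSeq GRCm38.p6) matched 6 of the 7 measured genes.

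The members, lists and alternatives were chosen with earlier results of these data known. The text names all members, all measured receptor chains, per list up to 4 genes with a large difference and the 1 highest without, 2 neighbours on each side, and the 2 nearest patterns. Not reported here are 2 genes that this rule covers. Others named, chosen after their values were seen, are Tbx21, Gata3, Ikzf3, Il1r1, Il23r, Lta, Osm, Il6, Il33 and Tslp, and single markers. The calculations were tested on simulated data. Python 3.11.15 was used with scipy 1.17.1, numpy 2.4.6, matplotlib 3.10.9 and pandas 2.3.3.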

Additional observations from a re-analysis of the deposited data

How the results depend on the processing

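The large differences of Ifng, Il10 and Csf1 higher in Th17 and of Csf2 higher in ILC3 were kept under 4 scalings, pseudocounts of 0.1 and 10, a minimum of 1000, and 2-fold and 8-fold thresholds. The 2-fold threshold is looser than the main one and could not remove a call. Ifng, the nearest to the threshold, was at a log2 ratio of 3.37, and the largest scaling shift was -0.46. The higher value of each called gene was 3121 or more, well above 1000. The scalings and that minimum were thus weak checks of these calls. With no minimum Il5 and Il13 joined the called genes, for 5 higher in Th17, and the interval alone placed 6 there. With reads grouped by 10 that 6 became 4. Counts over all genes, higher in Th17 and in ILC3, became 1923 and 2274 with no minimum, 219 and 280 at a minimum of 1000, 1691 and 1673 at 2-fold, 380 and 590 at 8-fold, and 6347 and 5949 by the interval alone. Centring on 150 genes of mitochondrial ribosome, proteasome and respiratory complex I shifted the median of all genes by -0.46 on the log2 scale and the split from 668 and 875 to 467 and 1188. Scaling by total reads shifted it by -0.11, to 613 and 941. The recomputed median of ratios, 1 of the 4 scalings, nearly repeats the deposited one and is hardly a separate check. It shifted the median of all genes by -0.000196 and left 668 and 875. The Ifng share of the 7 in Th17 was 72.1% without length and 81.2% per kilobase of exons, an alternative chosen after seeing the data. The Csf2 share in ILC3 was 77.8% and 85.5%. The median of the other cytokines turned from -0.76 to 0.15 with no minimum and to 0.22 at a minimum mean of 100, where the genes counted were 24 and 10 in place of 18. Leaving out the gene with the most reads, also chosen after seeing the data, turned the log2 ratio of the summed NK cell and ILC1 markers from 1.94 to -1.36 and that of mast cell and basophil markers from 0.51 to -1.29. Counts of 15 to 61 reads limit Il10 and Il5 in ILC3 and Il5, Il13 and Csf2 in Th17. No paired analysis was possible because each group had 1 library, and for the same reason no library could be left out.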

Other observations

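Beside the cytokine genes, a few neighbours by gene order had differences of their own. Eps8l3, next to Csf1 on chromosome 3 and encoding a protein related to the kinase substrate EPS8, had 1.18 normalized counts (1 read) in Th17 and 1312 in ILC3, a ratio of 1116 (199.99 to 44105). It was opposite in direction to Csf1. Gstm5, a glutathione transferase gene 1 further along, had 62.3 in Th17 against 375 in ILC3 (6.02-fold, 4.52 to 8.16), and the split of reads among similar Gstm genes is uncertain. Il24, a member of the IL-10 family in the Il10 gene cluster, had 58.8 in Th17 against 0 in ILC3, with a floor of 3 reads giving at least 23-fold. Il19, between them, had 2.35 in Th17 and 0 in ILC3, under the floor in both. Ahcyl1, on the other side of Csf1, was at 2619 in Th17 against 1592 in ILC3. Dyrk3, near Il10, was at 149 and 448, and Cetn4, near Il2, at 78.8 and 0.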
